A study of Mus musculus with 6 samples.

Results

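Adgra1 and Adgrg7 encode orphan receptors of the adhesion G protein-coupled receptor (adhesion GPCR) family, and both stood far higher in sgUhrf1 tumours than in sgNT tumours. They are 2 of the 10772 genes that could be named by position in this series, of which 4578 had enough counts to be tested, and 2 of the 30 adhesion GPCR genes listed. They were picked from an earlier reading of the same comparison, so their difference between the groups is described here and carries no test. Each gene was taken from the deposited row whose listed intervals cover at least 50 bp of exon of that gene and of no other in GENCODE M21, because the row names belong to build GRCm39 while the reads lie at GRCm38 positions. The row listed as Scart2 holds Adgra1, and the row listed as Gm15840 holds Adgrg7.

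All 6 samples were whole tumours of the murine lung cancer line LG1233-OVA, grown under the skin of female C57BL/6 mice from 1000000 cells and taken on day 27. The sgNT group (3 tumours) has the genotype label WT and the treatment label Control. In the sgUhrf1 group (3 tumours, genotype Uhrf1 Knockout, treatment Knockout) the cells came from stable lines made with CRISPR/Cas9 against Uhrf1, a chromatin protein gene best known for the upkeep of DNA methylation. The labels call the tumours biological replicates and do not say whether a line is 1 clone or which mouse each tumour came from, so p-values measure the spread between these tumours only. Host cells in the tumours were not edited, and the age of the mice is not given in the sources used here. The tumours gave 5462555 to 6375069 counts each. Uhrf1 itself held 841, 917 and 554 counts in sgNT and 685, 460 and 409 in sgUhrf1 tumours, which overlap, so its RNA level does not check the labels.

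Adhesion GPCRs join a membrane-spanning receptor domain to a long extracellular part that binds matrix or neighbouring cells. In most of them a GAIN domain cuts the protein into 2 parts that stay attached, and the newly exposed stretch can switch on G proteins from within. Adgra1, formerly Gpr123, is unusual in having no GAIN domain and is best known from the brain. Adgrg7, formerly Gpr128, is best known from the epithelium of the intestine. Neither has a ligand that is widely agreed on.

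The rows sample very different shares of these genes. Adgra1 (ENSMUSG00000025475.17, GRCm38 chromosome 7, 139834174 to 139878088, plus strand) has 8 exons in its coding transcript, and the Scart2 row covers 3118 bp of exon, all in exon 8, or 65.5% of the 4758 bp transcript. Of those bases 1225 are coding and the rest lie in the 3′ untranslated region. The same row also takes in 743 bp of Adgra1 intron and 1671 bp outside the gene. Adgrg7 (ENSMUSG00000022755.4, GRCm38 chromosome 16, 56724609 to 56795855, minus strand) has 16 exons, and the Gm15840 row covers exon 15 alone, 157 coding bp or 5.82% of the 2698 bp transcript, with 786 bp of the introns beside it. Counting was without strand, so antisense or intron reads inside these intervals are not separated. The rows that carry the names Adgra1 and Adgrg7 in the files lie over no M21 exon and held 19 and 10 counts in all 6 tumours together.

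**Figure D1:**
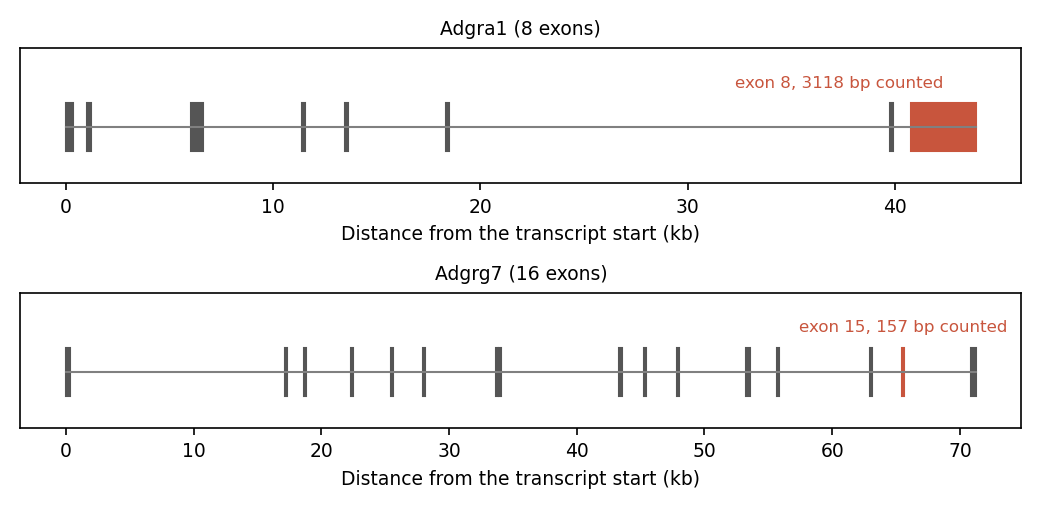
Exons of the coding transcripts of Adgra1 and Adgrg7 by distance from the transcript start in kb, with the exons that the deposited rows count in red and the others in grey; bars under 0.15 kb are widened to 0.15 kb so that they can be seen. The counted exons are exon 8 of 8 for Adgra1 (3118 bp) and exon 15 of 16 for Adgrg7 (157 bp), both toward the 3′ end; intron and outside bases of the rows are not drawn.

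The stretches below, from the GENCODE M21 transcripts, show what was counted: for Adgra1 the first 150 bases of exon 8 (chr7:139874967-139875116, plus strand) after 20 bases of the exon before, and for Adgrg7 all of exon 15 (chr16:56730224-56730380, minus strand) between 20 bases of each neighbouring exon. Capitals mark bases inside the counted rows.
Adgra1 exon 8: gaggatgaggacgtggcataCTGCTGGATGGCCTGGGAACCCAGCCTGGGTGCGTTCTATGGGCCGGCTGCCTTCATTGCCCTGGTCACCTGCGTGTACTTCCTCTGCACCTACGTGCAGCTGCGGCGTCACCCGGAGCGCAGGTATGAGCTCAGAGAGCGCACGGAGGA
Adgrg7 exon 15: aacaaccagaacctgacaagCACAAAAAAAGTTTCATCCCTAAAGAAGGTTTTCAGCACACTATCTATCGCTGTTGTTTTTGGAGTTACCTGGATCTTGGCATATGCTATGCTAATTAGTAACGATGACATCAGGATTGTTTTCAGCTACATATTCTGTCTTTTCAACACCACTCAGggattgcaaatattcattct

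Adgra1 was low but present in every sgNT tumour and uniformly high in the sgUhrf1 tumours. Its row held 32, 31 and 10 counts in sgNT replicates 1 to 3 and 651, 564 and 503 counts in sgUhrf1 replicates 1 to 3. In CPM, counts scaled to a library of 1000000 with edgeR's TMM sizes, these were 5.07, 4.60 and 1.77 against 115, 89.5 and 111. The lowest sgUhrf1 tumour thus stood far above the highest sgNT tumour, and the groups did not overlap. The means were 3.81 ± 1.78 CPM (SD, n = 3) in sgNT and 105 ± 13.7 CPM (SD, n = 3) in sgUhrf1 tumours, a fitted log2 difference of 4.76 ± 0.35 (SE), or 27.2-fold. Among the sgUhrf1 tumours the highest level was only 1.29 times the lowest, while the sgNT tumours spread 2.86-fold over few counts. In whole tumours, a change in how many cells carry a transcript and a change in RNA per cell cannot be told apart, here and for every gene below.

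Adgrg7 had no counts in any sgNT tumour and was present in all sgUhrf1 tumours at unequal levels. Its row held 0, 0 and 0 counts in sgNT and 76, 181 and 39 counts in sgUhrf1 replicates 1 to 3, the latter equal to 13.5, 28.7 and 8.58 CPM. The sgUhrf1 mean was 16.9 ± 10.5 CPM (SD, n = 3), and replicate 2 stood 3.35 times above replicate 3. A count of 0 allows up to 3 counts, which is 0.475, 0.445 and 0.532 CPM in the 3 sgNT tumours. Against 3 counts over the whole sgNT group, Adgrg7 was at least 112-fold higher in sgUhrf1 tumours. Without sgUhrf1 replicate 2, its highest tumour, that bound was 70.3-fold, and leaving out single sgNT tumours, which lowers the bound by construction, gave 71.5 to 78.1-fold. The floor and the bound cover counting error only.

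**Figure D2:**
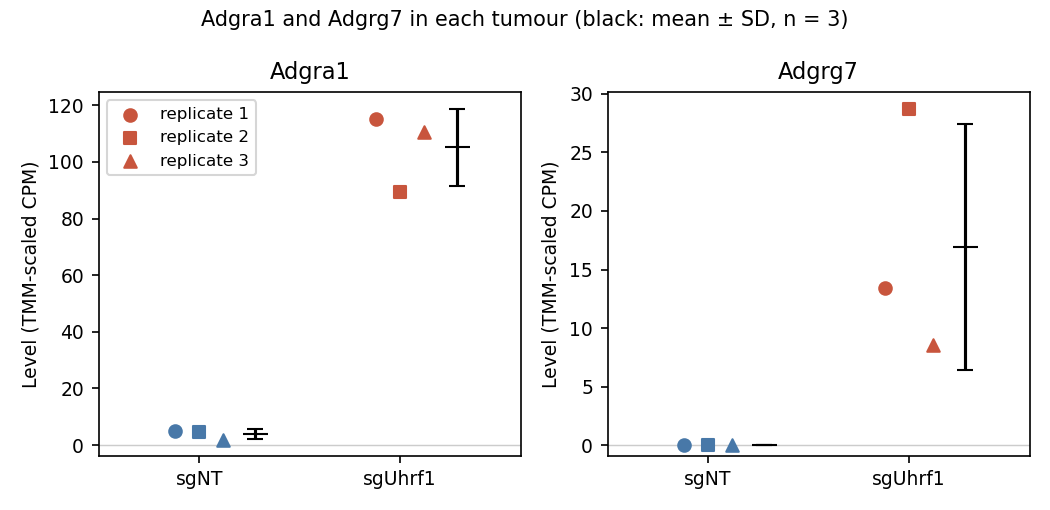
Levels of Adgra1 (left) and Adgrg7 (right) in TMM-scaled CPM in each tumour, with symbols for replicates 1 to 3, and mean ± SD (n = 3) in black; the vertical axes differ. The sgUhrf1 tumours sit between 89.5 and 115 CPM for Adgra1 and between 8.58 and 28.7 CPM for Adgrg7, and all sgNT tumours are at or under 5.07 and at 0 CPM.

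Among the 4578 tested genes, edgeR called 42.2% changed at an adjusted p under 0.05, 20.6% higher and 21.5% lower in sgUhrf1 tumours. Over all 10503 tested rows the shares were 39.9%, 20.2% and 19.7%. In 26.5% of the genes every sgUhrf1 tumour stood above every sgNT tumour, and in 29.6% every one stood below. Both receptors were among the higher calls and among the genes without overlap, as their choice implies, and nothing is read from that. Adgrg7, like other genes without sgNT counts, could pass the filter on low counts only through the sgUhrf1 tumours. Ranked by fitted log2 difference, Adgra1 was number 97 of 4578, a place that its choice from this comparison favours. The ranking includes Adgrg7 and other genes without sgNT counts. Their fitted values depend on the prior count, so the place of Adgrg7 is not given. Divided by kb of exon covered, the sgUhrf1 means were 108 CPM for Adgrg7 and 33.7 CPM for Adgra1. The counts, however, come from the whole rows. That of Adgrg7 has 943 bp, of which 157 are exon, and that of Adgra1 has 5532 bp, of which 3118 are exon. Reads in the 786 intron bp of the Gm15840 row are not separated from those in its exon. The values per kb of exon assume no reads outside exons, so the order of the receptors is not read from them.

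The 2 receptors were highest in different sgUhrf1 tumours. Adgra1 was highest in replicate 1 and lowest in replicate 2, at 1.10 and 0.852 times its group mean. It was high in every sgUhrf1 tumour, at 115, 89.5 and 111 CPM in replicates 1 to 3, so its order between them rests on small gaps. For Adgrg7 the highest was replicate 2, at 1.70 times the mean, and the lowest replicate 3, at 0.507. Across all 6 tumours their log2 CPM values had a Pearson r of 0.96, a value set by the gap between the groups that both were chosen for.

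The tumour that held most Adgrg7 also held most RNA of intestinal epithelium genes. Of 27 such markers listed, 11 had a row of their own and 10 were tested. Of the 10, Muc3, Spink4, Lypd8, Ptprh, Agr2 and Fcgbp held only 0 to 4 counts over the sgNT group and could pass the filter on low counts only through the sgUhrf1 tumours, so their higher level there was a condition of being tested and is not counted as a result. Of the 4 others, 3 rose and 0 fell in edgeR, against 20.6% and 21.5% of all tested genes. Most of these genes were already known from earlier results to be high here. Vil1, the actin bundler of the brush border, rose from 6.66 ± 4.39 to 125 ± 74.7 CPM (a log2 difference of 4.22, SE 0.62, with an adjusted p of 0.00113 in edgeR). Cdh17, the liver-intestine cadherin, rose from 52.8 ± 20.3 to 633 ± 142 CPM (3.58 ± 0.31, adjusted p = 0.000136). Lgals4, a gut lectin, rose from 39.1 ± 40.8 to 967 ± 434 CPM (4.63 ± 0.87, adjusted p = 0.00358). The keratin gene Krt20, at 0.35 ± 0.28, did not pass (adjusted p = 0.356). All 4 tested rows that intestinal markers share with other genes were higher. The summed level of the 11 markers was 272 to 405 CPM in sgNT and 1696 to 3743 CPM in sgUhrf1 tumours, and 0 of the 11 were without counts in all tumours. These sums include the 6 genes that could pass the filter only through the sgUhrf1 tumours, so their gap between the groups is not counted as a result.

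All 10 tested intestinal markers, Krt20 included, were highest in sgUhrf1 replicate 2 among the sgUhrf1 tumours, as Adgrg7 was. Over the 945 genes called higher, replicate 2 was the highest tumour for 37.4%, and over all tested genes for 35.7%. Of the 10 markers, 4 had the full order of Adgrg7, replicate 2 above 1 above 3. Vil1 stood at 0.787, 1.67 and 0.540 times its sgUhrf1 mean in replicates 1 to 3, and Adgrg7 at 0.795, 1.70 and 0.507. Lypd8, a secreted colon protein gene, also followed that order at 0.893, 1.86 and 0.248, while Spink4, a goblet cell gene, was lowest in replicate 1 at 0.252. None of the 10 had the order of Adgra1, whose levels differed little between these tumours. The part of epithelial content in the level of Adgrg7 was not tested. A list for the epithelium of the lung cancer line mixes keratin, cadherin, surfactant and lineage factor genes. Of its 5 tested genes, 5 were highest in the same tumour. Sftpd, 1 of the 5, could pass the filter on low counts only through the sgUhrf1 tumours. The summed levels of the list, Sftpd included, were 160 to 521 CPM in sgNT and 1960 to 3372 CPM in sgUhrf1 tumours.

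**Figure D3:**
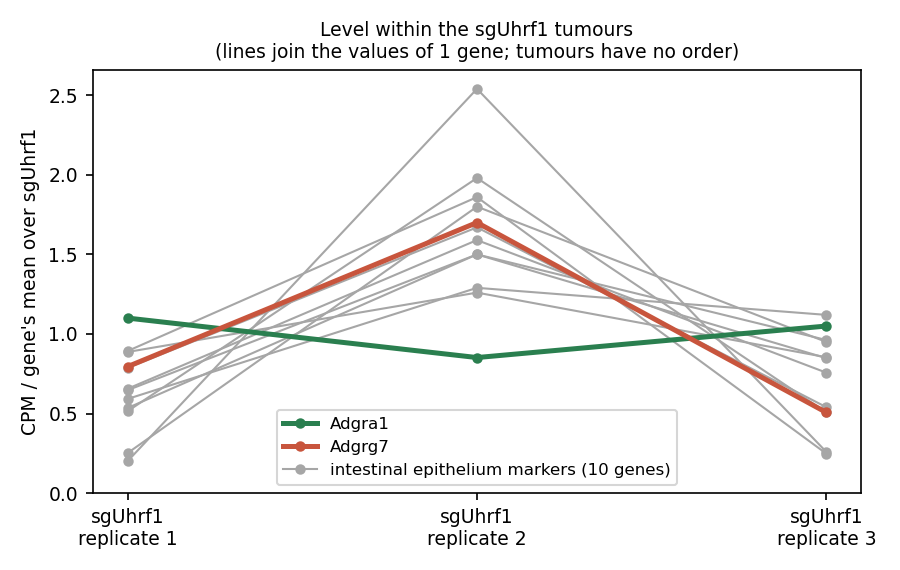
CPM of Adgra1 (green), Adgrg7 (red) and 10 intestinal epithelium markers (grey) in each sgUhrf1 tumour, divided by the gene's mean over the 3 tumours; lines only join the values of 1 gene. Adgrg7 and all 10 markers are highest in replicate 2, where Adgrg7 stands at 1.70, and Adgra1 is lowest there at 0.852.

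Few markers of neurons and glia, the cells Adgra1 is best known from, could be tested. Of 22 listed genes 9 had a row of their own and 2 were tested, and 1 of 2 tested shared rows was higher; Elavl3, Gria2 and Gfap had no counts in any tumour. Map2, a neuronal microtubule protein gene, fell by 1.47 ± 0.44 on the log2 scale (edgeR adjusted p = 0.0262), a call lost when sgNT replicate 2 or 3 or sgUhrf1 replicate 2 or 3 was left out (adjusted p = 0.0560 to 0.116). The part of such cells in the level of Adgra1 was not tested. Skeletal muscle RNA was unequal between tumours, with 6 marker genes summing to 506 CPM in sgNT replicate 2 and 433 CPM in sgUhrf1 replicate 1 and to between 5.14 and 29.0 CPM in the others. Of 5 tested monocyte and macrophage markers edgeR called 0 higher and 1 lower, and of 6 endothelial markers 0 in either direction, with 2 higher and 1 lower at an unadjusted p under 0.05. Over all tested genes edgeR called 20.6% higher and 21.5% lower. With 5 or 6 genes the counts cannot be set apart from those shares, so the content of these cells is not read from them. Without the 2 muscle-rich tumours the log2 difference of Adgra1 was 4.84 and the bound for Adgrg7 80.8-fold.

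Few other adhesion GPCR genes could be tested on a row of their own. Of the other 28 listed genes, 13 had a row of their own and 6 were tested. In edgeR 0 were higher and 1 was lower, against 20.6% and 21.5% of all tested genes. With 6 genes these counts cannot be set apart from those shares. The counts were also 0 and 1 at an unadjusted p under 0.05, in DESeq2 and in limma-voom. The median log2 fold change of the 6 genes was 0.16, against -0.0035 over all tested genes. The call was Adgrg6 (formerly Gpr126), known from Schwann cell myelination and as a receptor for type IV collagen. It stood at 23.4, 28.5 and 32.6 CPM in sgNT and at 4.43, 5.24 and 2.20 CPM in sgUhrf1 tumours. The groups did not overlap, and Adgrg6 fell by 2.81 ± 0.36 (SE) on the log2 scale with an edgeR adjusted p of 0.000633.

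The 5 other tested family members missed the threshold. Adgrf5, known from surfactant balance in the lung, had the largest positive log2 difference of these, 1.02 ± 0.54 (edgeR adjusted p = 0.163). Adgrg1 (Gpr56), a receptor for type III collagen, stood at 0.77 ± 0.51 (adjusted p = 0.261). Adgrl4, an endothelial receptor gene, stood at 0.58 ± 0.32 (adjusted p = 0.180). Celsr1, of planar cell polarity, and Adgra2, of the same subfamily as Adgra1 and a Wnt7 co-receptor gene, stood at -0.25 ± 0.64 and -0.33 ± 0.49 (adjusted p = 0.781 and 0.620). Adgra2 ranged from 6.33 to 10.4 CPM in sgNT and from 3.17 to 11.5 CPM in sgUhrf1 tumours, so the groups overlapped. Adgrb1, Adgrb2, Adgrb3, Adgrd1, Adgre4, Adgrl2 and Adgrv1 had rows with too few counts to test, each at or under 3.30 CPM in every tumour. The remaining 9 family members, such as Adgre1, were not analysed here.

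A further 6 family members lie in rows shared with other genes, and 5 of these rows were tested. The row over Adgrg3 (Gpr97, a granulocyte receptor gene) and Adgrg1 rose from 10.4 ± 1.01 to 52.1 ± 8.83 CPM, by 2.33 ± 0.23 (SE) on the log2 scale with an edgeR adjusted p of 0.000223. Adgrg1's own row did not pass, and the share of each gene in the common row is unknown. The row over Adgrl3, a latrophilin gene, and 2 predicted genes fell from 70.8 ± 10.5 to 16.5 ± 3.98 CPM, a log2 difference of -2.10 ± 0.25 with an adjusted p of 0.000452. The shared rows of Adgra3 (-1.96 ± 0.79), Celsr3 (0.29 ± 0.25) and Adgre5 (0.11 ± 0.17) did not pass, with adjusted p of 0.0755, 0.402 and 0.637. The row over Celsr2 held too few counts to test.

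**Figure D4:**
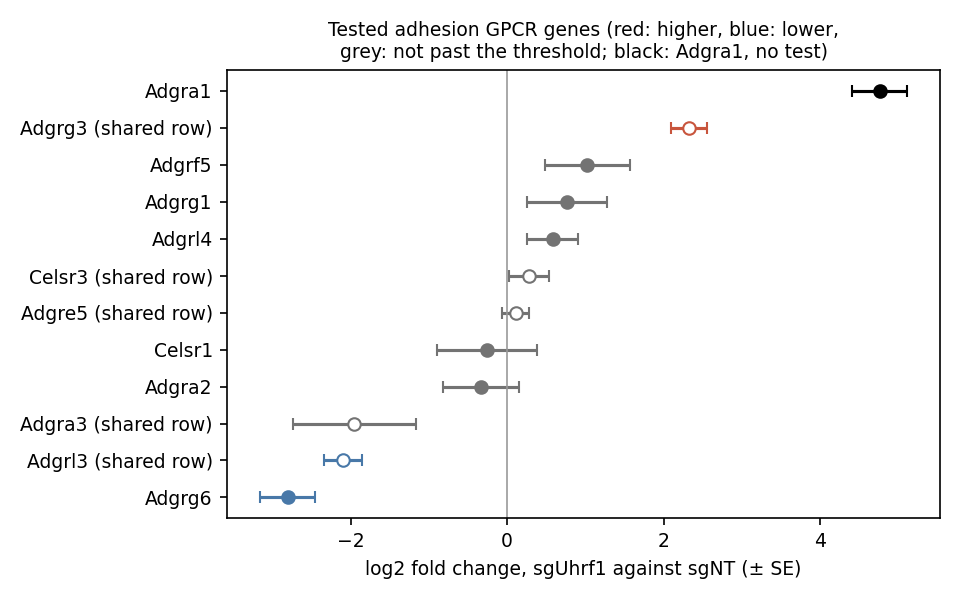
Log2 fold change, sgUhrf1 against sgNT, with SE, for each tested row of an adhesion GPCR gene; open points are rows shared with other genes, red and blue points passed edgeR's threshold as higher or lower, and Adgra1 is black since it was chosen from this comparison. Adgrg6 at -2.81 and the shared rows of Adgrg3 at 2.33 and Adgrl3 at -2.10 passed; Adgrg7 is left out because its sgNT tumours held no counts.

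Genes that act with adhesion GPCRs included higher and lower calls. Of 31 ligands, ligand partners and bound intracellular proteins of other family members, 8 were tested on rows of their own, with 2 higher and 4 lower, against 20.6% and 21.5% of all tested genes. Of these, Sftpd could pass the filter on low counts only through sgUhrf1 tumours and Tenm3 only through sgNT tumours. Neither of these calls is counted as a result. Of the 6 others 1 was higher and 3 were lower. Sftpd, a surfactant protein reported to bind the Adgrf5 receptor, went from 0.359 ± 0.331 to 43.4 ± 30.4 CPM (6.79 ± 0.90 on the log2 scale). Its levels in sgUhrf1 replicates 1 to 3 were 8.68, 64.9 and 56.7 CPM, highest in the same tumour as Adgrg7 and lowest in replicate 1. Tenm3, a teneurin that latrophilins bind, went from 59 counts over the sgNT group to 1 over the sgUhrf1 group, 52-fold lower with an exact binomial interval of 8.98 to 2090 that covers counting error only. Dlg4, a synaptic scaffold gene, fell by 2.14 ± 0.41 on the log2 scale (edgeR adjusted p = 0.00367). Dock1, which signals below the Adgrb1 receptor, fell by 1.73 ± 0.43 (adjusted p = 0.0123). The other higher and lower calls, named after their values were seen, were Thy1 (0.74 ± 0.22, adjusted p = 0.0268) and Tjp1 (-0.63 ± 0.16, adjusted p = 0.0149). Thy1 missed the threshold when any tumour but sgUhrf1 replicate 2 was left out (adjusted p = 0.0650 to 0.113), Tjp1 without sgNT replicate 2 or sgUhrf1 replicate 1 (adjusted p = 0.0649 and 0.0518), and Dock1, Thy1 and Tjp1 when both muscle-rich tumours were left out (0.103, 0.195 and 0.189). Of 7 tested shared rows 1 was higher and 2 were lower.

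No G protein gene on a row of its own passed in the main edgeR fit. Of 28 listed subunit genes 6 were tested on rows of their own. EdgeR called 0 higher and 0 lower, against 20.6% and 21.5% of all tested genes. With 6 genes these counts cannot be set apart from those shares. At an unadjusted p under 0.05 in edgeR, 1 was higher and 0 were lower. That gene, Gng11, a gamma subunit, stood at 0.77 ± 0.28 on the log2 scale (adjusted p = 0.0510) and passed in DESeq2 (0.0252) and limma-voom (0.0328). Of 6 tested rows that G protein genes share with others, 2 were higher and 1 was lower. Gnai3, which encodes an inhibitory alpha subunit, stood at 0.14 ± 0.18 (adjusted p = 0.562), and Gnb1, a beta subunit gene, at -0.15 ± 0.25 (adjusted p = 0.659). Of 26 arrestin, receptor kinase and RGS genes, which end G protein signals, 6 were tested, with 1 higher and 1 lower and a median log2 fold change of 0.62; 1 of 6 in each direction is near the 20.6% and 21.5% of all tested genes. Rgs11 rose from 3.10 ± 2.27 to 15.6 ± 6.36 CPM (2.32 ± 0.55 on the log2 scale, adjusted p = 0.0100). Arrb1, an arrestin gene, fell by 1.32 ± 0.33 (adjusted p = 0.0120), a call lost when sgNT replicate 3 (adjusted p = 0.0567) or both muscle-rich tumours (0.0871) were left out. Of 7 tested shared rows 1 was higher and 1 lower.

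Genes whose levels ran most like each receptor over the 6 tumours were found by Pearson correlation of log2 CPM among 4102 genes, a description in which the gap between the groups takes the largest part. For Adgra1 they were Cd38, an NAD-consuming surface enzyme gene (r = 0.997), the proton pump subunit gene Atp6v0e2 (0.997), Trim12c (0.997), Fbxl12 (0.995) and Il1rn, the interleukin-1 receptor antagonist gene (0.994), and 257 genes reached 0.95. Cd38 stood at 26.9, 23.1 and 18.3 CPM in sgNT and 117, 99.7 and 124 CPM in sgUhrf1 tumours. Atp6v0e2 stood at 2.38, 1.93 and 1.06 CPM against 42.5, 43.3 and 51.5 CPM. For Adgrg7 they were the serine protease gene Prss32 (r = 0.998), Lypd8 (0.998), the epithelial adhesion gene Ceacam1 (0.997), the brush border protocadherin gene Cdhr2 (0.996) and Gne, of sialic acid synthesis (0.996), and 202 genes reached 0.95. Prss32 held no counts in sgNT tumours and stood at 79.0, 142 and 43.3 CPM in sgUhrf1 replicates 1 to 3. Ceacam1 went from 7.76, 6.67 and 5.85 CPM to 528, 845 and 201 CPM.

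The 3 nearest protein-coding genes on each side of each receptor, chosen by position after the main values were known, gave few measurements. Beside Adgra1, Inpp5a, a phosphoinositide phosphatase gene 254522 bp before it, stood at -0.017 ± 0.274 on the log2 scale (edgeR adjusted p = 0.967). The row shared by Nkx6-2, Cfap46 and Inpp5a stood at 0.18 ± 0.20 (adjusted p = 0.515). Cfap46, 150357 bp before Adgra1 and the nearest gene on that side, was too low to test, with 1, 0 and 0 counts in sgNT and 9, 7 and 0 in sgUhrf1 tumours. Kndc1, 16608 bp after Adgra1, was also too low, with 1 count in the 6 tumours. Beside Adgrg7, Abi3bp, a matrix protein gene, lies 34474 bp away at lower coordinates, past the 3′ end of Adgrg7. Abi3bp did not pass (1.58 ± 0.59 on the log2 scale, edgeR adjusted p = 0.0596). It stood at 63.6, 12.9 and 40.7 CPM in sgUhrf1 replicates 1 to 3, lowest in the tumour where Adgrg7 was highest. Tmem45a2 held no counts, and Tfg and Tmem45a, the direct neighbours of Adgrg7, were not analysed here.

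Uhrf1 is known for copying CpG methylation, so the 250 bases before each start are printed with CpG dinucleotides in capitals (RefSeq, GRCm38.p6, 5′ to 3′, Adgra1 at chr7:139833924-139834173 on the plus strand and Adgrg7 at chr16:56795859-56796108 on the minus strand). Methylation was not measured here.
Adgra1 upstream: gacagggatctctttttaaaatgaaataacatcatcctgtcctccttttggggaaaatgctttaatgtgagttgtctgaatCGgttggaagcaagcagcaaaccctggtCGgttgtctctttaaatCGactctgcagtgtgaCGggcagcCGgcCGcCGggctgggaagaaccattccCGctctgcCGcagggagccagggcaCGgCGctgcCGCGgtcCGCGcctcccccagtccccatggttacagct
Adgrg7 upstream: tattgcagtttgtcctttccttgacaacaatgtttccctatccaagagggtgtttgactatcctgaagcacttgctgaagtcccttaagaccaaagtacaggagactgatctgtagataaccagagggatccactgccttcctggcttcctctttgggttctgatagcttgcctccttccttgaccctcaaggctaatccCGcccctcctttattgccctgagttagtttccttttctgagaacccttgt

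The 2 upstream windows differ in CpG content. That of Adgra1 holds 15 CpG in 56.4% GC, an observed over expected ratio of 0.755, and 27.5% of 32536 mouse windows of the same length hold at least as many. That of Adgrg7 holds 1 CpG in 47.2% GC, a ratio of 0.0744, and 18.6% of windows hold that many or fewer. The median window has 6 CpG and a ratio of 0.378. Searching both strands, the CDX core TTTAT is in the Adgrg7 window 1 time and not in the Adgra1 window (in 37.2% of all windows), and the TATA box TATAAA (12.3%) and the HNF4 consensus CAAAGTCCA (0.387%) are in neither. These are matches of letters only.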

How the data were processed

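Poly(A) RNA of 6 tumours was sequenced in pairs. The deposited values are counts of read pairs per row, not normalized. Per the submitters' processing notes, fastp, STAR and featureCounts were used with build GRCm38. Per the file headers, featureCounts 2.0.1 counted exons by gene name with the GENCODE M26 annotation, without strand. M26 has GRCm39 coordinates, so rows were renamed by position against GENCODE M21 (GRCm38). Of 53599 rows, 13437 cover at least 50 bp of exon of 1 gene alone (small RNA genes set aside) and hold 40.3% of counts. The row with most counts stood for a gene.

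All 10503 rows that passed filterByExpr (minimum count 10, total 15) were fitted with the quasi-likelihood test of edgeR 4.0.16 in R 4.3.3, with TMM scaling and Benjamini-Hochberg adjustment (threshold 0.05). DESeq2 1.42.0, limma-voom 3.58.1, other filters and scalings, a replicate block and left-out tumours were alternatives. The 2 receptors, the gene lists and the alternatives were chosen with earlier results of these data known. Named genes are every tested family member, up to 4 called genes per list by size of change, markers by level, and the 5 genes with the highest correlation to each receptor (log2 CPM, prior count 2, mean of at least 1). Intervals are at the 95% level. The result of 1 marker gene is not reported here.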

Additional observations from a re-analysis of the deposited data

How the results depend on the processing

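Over 16 alternatives the log2 difference of Adgra1 lay between 4.43 and 4.98 and never moved by more than the spread between tumours (SD of 0.546 on the log2 scale). The bound for Adgrg7 lay between 70.3 and 134-fold over the 10 alternatives that give one. With at least 200 bp of exon its row names no gene and gives no value. A minimum of 200 or 20 bp reuses the main fit, so Adgra1 kept its main value there by construction. The bound for Adgrg7 likewise stayed at 112-fold by construction with 20 bp and with all rows of a gene summed. The other family members kept 0 higher and 1 lower in all 16 alternatives, counts too small to set apart from the shares of all tested genes. Without the 2 muscle-rich tumours, 1094 rows were higher and 771 lower, 522 and 384 genes, 1 ligand or partner gene was higher and 2 were lower, and 0 arrestin, kinase and RGS genes were lower. Leaving out 1 tumour at a time gave 1259 to 1908 rows and 613 to 902 genes lower, the lowest of both without sgNT replicate 2, as well as 1 to 3 ligand or partner genes higher, 0 to 1 G protein genes higher, 1 to 3 arrestin, kinase and RGS genes higher and 0 to 1 lower. With median-of-ratios factors, DESeq2, limma-voom, no filter, the stricter filter or the replicate block, 1 G protein gene was higher. With no filter 2 arrestin, kinase and RGS genes were higher, and with at least 200 bp of exon 0 were lower. For single named genes, 578 of 610 values kept their call and direction or stayed uncalled, 17 lost the call, 15 gained one and 0 calls reversed; why was not tested.

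Tumours with the same number share only that number: deviations from the group means correlated at -0.0795, -0.0209 and 0.05 for numbers 1 to 3. With the replicate block, the log2 difference of Adgra1 was 4.82. Depth limits Adgrg7 in sgNT tumours, where 0 counts allow up to 0.445 to 0.532 CPM.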
